A study of Gallus gallus with 24 samples.

Results

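Of 24 broiler chickens whose hypothalamus was sequenced, 3 carried transthyretin (TTR) RNA above 1000 CPM, the usual scaling of a count by its library's total, and the other 21 had 165 CPM or less. The 3 birds are described here against the 21, to ask which genes other than TTR came with it. The working name for them is birds with choroid plexus in the dissected piece, and TTR alone chose them, so its difference between the 3 and the 21 is described and not tested. The birds were Ross 308 broilers, a fast-growing meat strain, and all 24 were killed on day 42 after hatch. Diet and house temperature made 4 groups of 6 birds: 1% L-citrulline feed at 35 °C, basal feed at 35 °C, 1% L-citrulline feed at 24 °C, and basal feed at 24 °C, all at 60% relative humidity, with the temperatures applied from day 28. Each group had 6 replicates of 12 chickens, and 1 chicken of each replicate gave a library of total RNA, so the 24 libraries are 24 birds. The 3 birds were L-citrulline birds 1 and 5 and basal bird 6, all from 24 °C.

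The choroid plexus is a fringe of epithelium and vessels that hangs into the brain ventricles and makes most of the cerebrospinal fluid. Its epithelial cells pump ions and water from blood to ventricle, carry hormones, vitamins and minerals across, and secrete proteins into the fluid. TTR, which binds thyroid hormone, is their best known product in birds and mammals. The hypothalamus forms the walls and floor of the third ventricle, and the roof of that ventricle holds choroid plexus a short way above it.

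TTR lies on chromosome 2 from base 106129430 to 106138301 on the plus strand (ENSGALG00000015143; build GRCg6a, per the submitters' processing notes). It had 1484 CPM in L-citrulline bird 1, 2006 CPM in L-citrulline bird 5 and 1707 CPM in basal bird 6, against a lowest of 4.23, a median of 39.7 and a highest of 165 CPM in the 21 others. The nearest birds on the other side of the threshold were L-citrulline birds 2 and 4 at 35 °C, with 165 and 149 CPM, so the gap was 9.02-fold. Scaled for length, TTR reached 2017, 2726 and 2320 FPKM in L-citrulline birds 1 and 5 and basal bird 6, which placed it between rank 11 and rank 13 of all genes in those birds. In the 21 others it ranged between 5.75 and 224 FPKM, at ranks from 194 to 9261. These are the values that chose the birds.

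Library size did not set the 3 birds apart. They held 12776660 to 13898066 counts, against 12635239 to 15001037 counts in the 21 others, with a mitochondrial share of 7.16% to 7.32% against 6.50% to 8.19%. By W-chromosome counts, which in birds only females have, L-citrulline bird 1 was in the high class and the other two were in the low class. All the libraries held hypothalamic genes: AVP, which encodes the precursor of the avian antidiuretic hormone, had 936 to 2271 CPM in the 3 birds and 629 to 6519 CPM in the 21 others. L-citrulline bird 5 stood apart from the other two in further ways. Its summed meningeal and fibroblast markers were 277% of the median of the 21 birds, its smooth muscle actin ACTA2 had 420 CPM against at most 79.5 CPM in the 21, and its summed hypothalamic markers ranked 23 of 24 birds. Results below are therefore also given without it where that changes them.

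**Figure D1:**
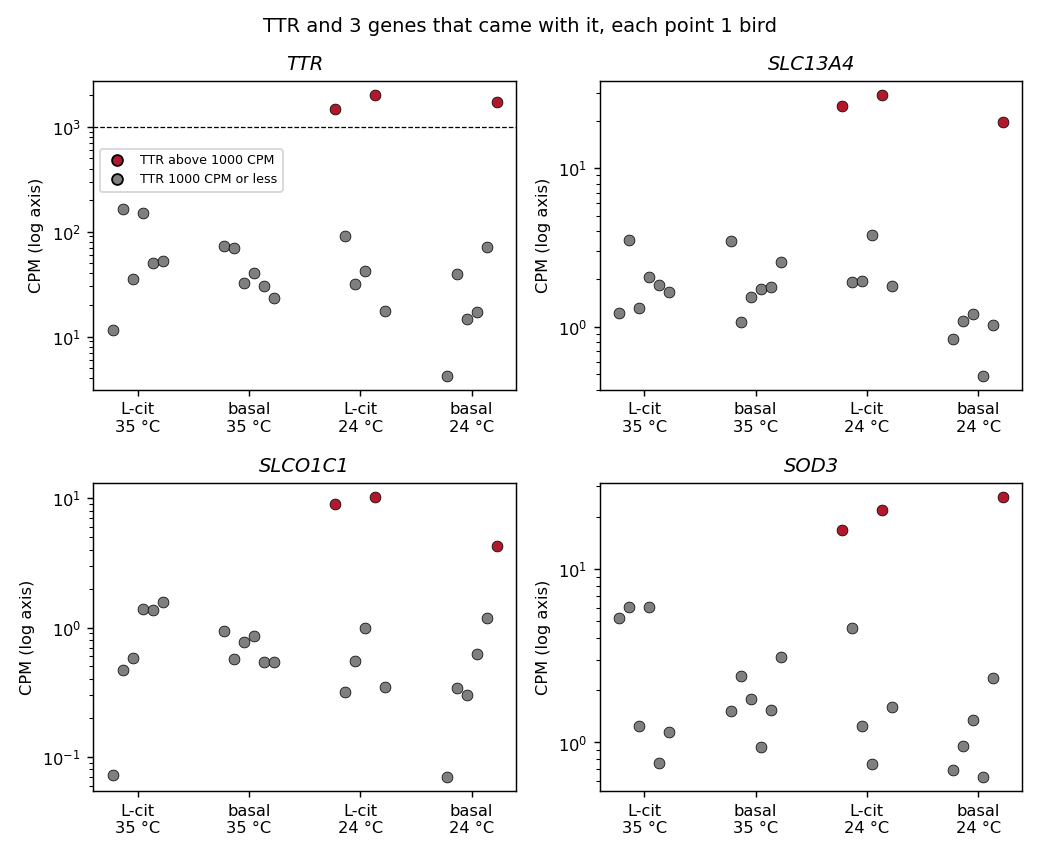
CPM of TTR, SLC13A4, SLCO1C1 and SOD3 on log axes, 1 point per bird, in the 4 diet and temperature groups; red marks the 3 birds with TTR above 1000 CPM (dashed line) and grey the 21 others. In each panel the 3 red points lie above all grey ones, and they belong to 24 °C groups.

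Outside TTR, 13 of 13741 tested genes rose in the 3 birds (0.0946% of the genes tested) and 0 fell (0%), by edgeR's quasi-likelihood test with the diet and temperature group as a term and Benjamini-Hochberg adjusted p under 0.05. With the group as a term, each log2 fold change sets the 3 birds against the other birds of their own groups. These are 24 °C groups, so the 35 °C birds enter through the spread and not through the fold change. Ranges and medians of the 21 given beside a fold change cover both temperatures. At an unadjusted p under 0.05 there were 443 higher (3.22%) and 291 lower (2.12%). DESeq2 and limma voom called 1 and 0 lower genes. Of the 13, 4 are solute carriers (SLC6A20, SLC13A4, SLCO1C1 and SLC30A8) and 4 more encode secreted, shed or matrix proteins with names in the table (SOD3, CHAD, KL and TF). CEMIP, PROCA1 and 3 genes without a symbol made up the rest. SLC6A20 met the filter on low counts only with the 3 birds counted in, so it had to differ, while the other 12 met it on the 21 birds alone. In 11 of the 13 the 3 birds lay above all the 21 others, which 36 genes did in all (0.262% of those tested). In bulk tissue, more cells of a type and more RNA per cell cannot be told apart, and this holds for every gene below.

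Of the genes that rose, the solute carrier SLC13A4 had the smallest adjusted p. The other solute carriers that rose had larger adjusted p than PROCA1 and CEMIP, which are described below. SLC13A4, which brings sulfate into cells together with sodium and in mammals is known from choroid plexus, had 24.8 CPM in L-citrulline bird 1, 29.0 CPM in L-citrulline bird 5 and 19.7 CPM in basal bird 6, the order kept for all values of the 3 birds, against 0.489 to 3.78 CPM with a median of 1.72 in the 21 others. The 3 birds stood well clear, and the log2 fold change was 3.86 ± 0.28 (SE, edgeR quasi-likelihood, adjusted p = 2.83e-08, 24 libraries fitted). SLCO1C1, the carrier that takes thyroxine into the brain, had 8.99, 10.3 and 4.27 CPM in the same birds, against 0.0694 to 1.57 CPM with a median of 0.567. Its log2 fold change was 3.72 ± 0.48 (adjusted p = 0.000201), and basal bird 6 was the lowest of the 3. Its family neighbour SLCO1A2 did not pass the test, with -0.26 ± 0.21 (95% interval -0.70 to 0.17).

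SLC6A20, a transporter of proline and other imino acids, had its highest levels in the 3 birds. It had 3.67, 5.01 and 2.77 CPM in the 3 birds and a median of 0.0791 CPM in the 21 others, of which 3 had no count and the highest had 1.49 CPM. The log2 fold change of 5.11 ± 0.75 was the largest of the 13 (adjusted p = 0.00133), and since the 21 birds sit at a few counts each its size is uncertain. In 3 of the 21 it reached the 0.74 CPM that the filter asks of 6 birds, so it was tested through the 3 birds in which it is high and lends no support to the set. SLC30A8, a zinc transporter best known from insulin granules, had 6.69, 7.12 and 7.34 CPM, against 1.17 to 3.13 CPM in the 21, a log2 fold change of 1.95 ± 0.24 (adjusted p = 0.000162). The 3 birds were nearly level with each other. A gene that the table describes as monocarboxylate transporter 2-like (ENSGALG00000007596) had 1.80, 4.77 and 4.27 CPM, and L-citrulline bird 1 lay within the range of the 21, 0.545 to 1.96 CPM; its log2 fold change was 1.90 ± 0.31 (adjusted p = 0.00473). Its call was lost without basal bird 6 (1.82, adjusted p = 0.192) and without L-citrulline bird 5 (1.57, adjusted p = 0.149). Over all 270 tested genes with an SLC or SLCO symbol, the 4 named above were higher (1.48%), 0 were lower and the median log2 fold change was -0.02. Of all tested genes 0.0946% were higher. The 4 include SLC6A20, which lends no support.

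Apart from SOD3, the secreted and matrix genes had log2 fold changes under those of the 4 carriers. SOD3, the superoxide dismutase that works outside cells, had 16.9, 21.9 and 26.1 CPM in the 3 birds, against 0.629 to 6.07 CPM with a median of 1.52 in the 21. Its log2 fold change was 3.75 ± 0.50 (adjusted p = 0.000287), and it lost its call without basal bird 6, its highest bird (3.21, adjusted p = 0.105). KL, or klotho, a membrane protein that is shed into blood and cerebrospinal fluid and serves as co-receptor for the hormone FGF23, had 9.28, 10.1 and 8.54 CPM, against 1.62 to 5.64 CPM. The classes did not overlap, with a log2 fold change of 1.60 ± 0.27 (adjusted p = 0.00883). Without basal bird 6 the adjusted p of KL was 0.201 and without L-citrulline bird 5 it was 0.0598, while the fold change stayed at 1.56 and 1.59.

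TF, or transferrin, the iron carrier, had 1021, 1448 and 1080 CPM, against 275 to 899 CPM with a median of 464 in the 21. Its log2 fold change of 1.25 ± 0.24 was the smallest of the 13 (edgeR quasi-likelihood, adjusted p = 0.0282). The call was lost in 8 of the 24 fits that left out 1 bird. All 8 left out a 24 °C bird, and only the 24 °C birds set the fold change. Oligodendrocytes also make transferrin. In the oligodendrocyte list 13 of 15 tested members had log2 fold changes below 0, and MBP, the main myelin protein, had -0.43 ± 0.30. The part of these cells in the TF values was not tested. CHAD, a leucine-rich protein of cartilage matrix, had 14.2, 18.5 and 13.9 CPM, against 2.36 to 8.83 CPM (log2 fold change 1.73 ± 0.27, adjusted p = 0.00226). CEMIP, which takes part in the breakdown of hyaluronan, had 21.8, 27.2 and 17.9 CPM, against 5.94 to 12.7 CPM (1.63 ± 0.15, adjusted p = 4.5e-07). Both kept the 3 birds above the 21.

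PROCA1, named for its binding to cyclin A1, had 71.3, 46.1 and 51.2 CPM in the 3 birds and 11.5 to 19.9 CPM in the 21, a log2 fold change of 1.85 ± 0.15 (adjusted p = 9.61e-08). It was highest in L-citrulline bird 1, the bird with the least TTR of the 3. ENSGALG00000050919, which the table does not describe, had 7.63, 8.92 and 7.34 CPM, against 0 to 5.89 CPM (3.73 ± 0.70, adjusted p = 0.0255). ENSGALG00000045238, described there as fibrinogen-like protein 1-like, had 7.99, 2.03 and 7.19 CPM, against 0.970 to 6.03 CPM (1.89 ± 0.36, adjusted p = 0.0255), so L-citrulline bird 5 lay inside the range of the 21. The calls of these last 2 genes were lost in 7 and 5 of the 24 fits that left out 1 bird. CEMIP, SLC13A4, SLCO1C1, CHAD, PROCA1 and SLC30A8 kept their call in all 24. So did SLC6A20, which was tested through the 3 birds and lends no support.

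**Figure D2:**
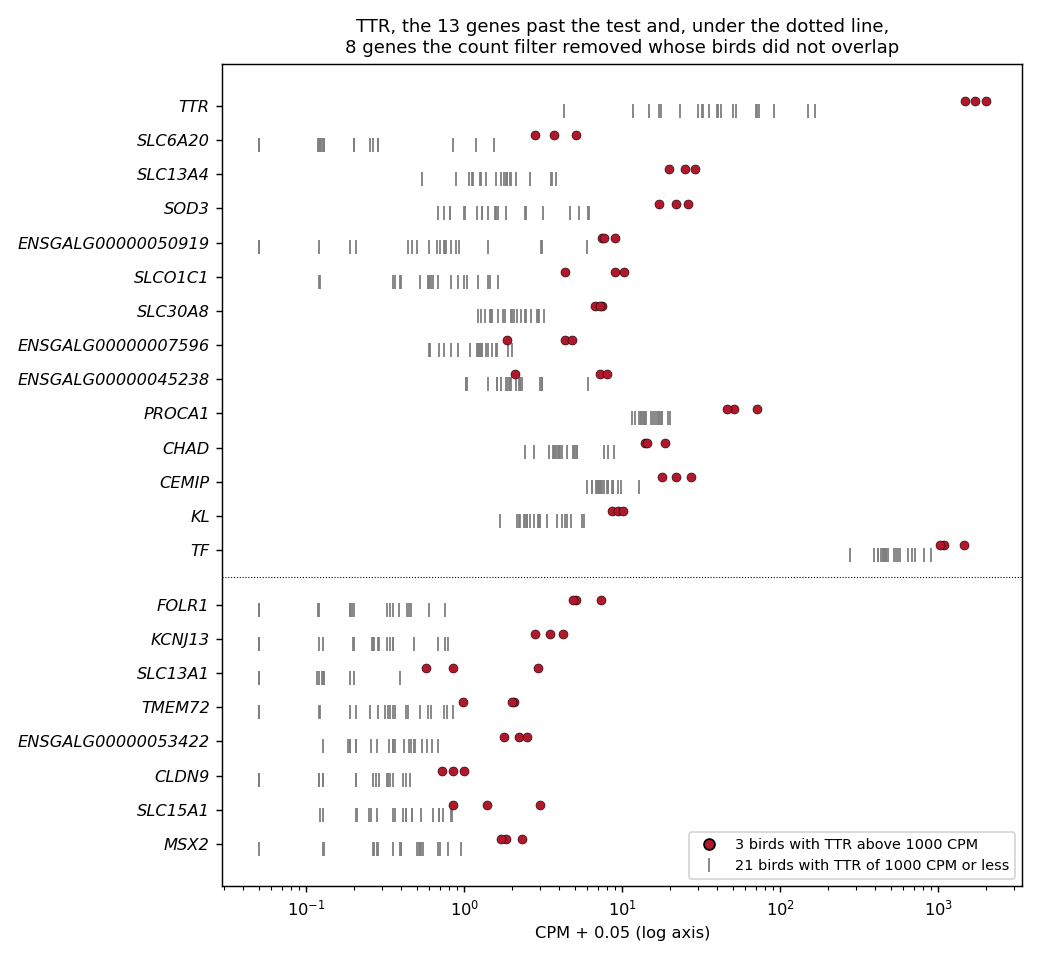
CPM plus 0.05 on a log axis for TTR, the 13 genes past the test and, below the dotted line, 8 genes removed by the count filter whose classes did not overlap; red points are the 3 birds with TTR above 1000 CPM and grey ticks the 21 others. The red points overlap the grey ticks in 2 genes, ENSGALG00000007596 and ENSGALG00000045238.

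Several textbook genes of the choroid plexus epithelium were too rare for the count filter, which asks for about 0.74 CPM or more in at least 6 birds. The filter kept 13742 of 16779 genes. In 8 of those it removed, the 3 birds lay above all the 21 others, as they did in 36 of the 13741 tested (0.262%). FOLR1, the folate receptor that brings folate into the cerebrospinal fluid, had 5.04, 4.85 and 7.26 CPM in the 3 birds, against 0 to 0.706 CPM in the 21. KCNJ13, the inward rectifier potassium channel Kir7.1 of the epithelium's ventricular face, had 3.45, 4.15 and 2.77 CPM, against 0 to 0.733 CPM. Without the filter, edgeR's quasi-likelihood test gave log2 fold changes of 4.48 ± 0.60 for FOLR1 and 4.30 ± 0.59 for KCNJ13 (adjusted p = 0.000324 and 0.000368). These genes are set apart by the birds in which they are high, so their number lends no support to the set.

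That fit also called SLC13A1, a second sodium and sulfate carrier, with 0.791, 2.90 and 0.524 CPM against at most 0.344 CPM (3.77 ± 0.73, adjusted p = 0.0265). It called TMEM72, a membrane protein, with 0.935, 1.96 and 2.02 CPM against at most 0.804 CPM (2.97 ± 0.54, adjusted p = 0.017). The fifth was ENSGALG00000053422, described as centrosome-associated protein 350-like, with 2.16, 2.43 and 1.72 CPM against at most 0.628 CPM. SLC13A1, TMEM72 and ENSGALG00000053422 too are set apart by the birds in which they are high. Their calls lend no support to the set. MSX2, a homeobox factor of the dorsal midline of the embryonic brain, had 1.65, 2.27 and 1.80 CPM against at most 0.907 CPM and did not pass (1.89 ± 0.47, adjusted p = 0.236). Nor did SLC15A1, a peptide transporter, and CLDN9, a claudin, at 2.13 ± 0.52 and 2.19 ± 0.67.

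Of the 24 ion and fluid transport genes that passed the filter, none passed the test, 10 had a log2 fold change above 0 and 14 below it. Those with the largest values were channels. CLIC6, a chloride channel protein, had 4.17, 4.46 and 4.12 CPM, against 0.550 to 3.22 CPM (1.53 ± 0.37, adjusted p = 0.233). The classes did not overlap. KCNQ1, a potassium channel subunit, had 0.720, 1.57 and 1.95 CPM, within the range of the 21, 0.289 to 2.22 CPM (1.53 ± 0.42, adjusted p = 0.405). TRPM3, a cation channel whose gene harbours a microRNA of the choroid plexus in mammals, had 30.8, 53.8 and 46.9 CPM, against 16.8 to 42.0 CPM (0.91 ± 0.22, adjusted p = 0.233). CFTR, a chloride channel, SLC4A5, a sodium bicarbonate carrier, and LRP2, or megalin, an uptake receptor from the solute transport list, had 0.81 ± 0.27, 0.61 ± 0.21 and 0.75 ± 0.24, with overlapping birds and adjusted p of 0.661, 0.632 and 0.581. Other channels of the list lay below 0, CLIC3 at -0.22 and CLCN2 at -0.07.

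Most listed choroid plexus genes did not pass the test. The 6 lists gathered 212 symbols beside TTR, 189 rows of the table matched them, and 164 passed the filter. Of these 5 rose (SLC6A20, SLC13A4, SLCO1C1, KL and TF) and 0 fell, beside 13 of all 13741 tested genes that rose (0.0946%). A log2 fold change above 0 was seen in 92. The median was 0.03 beside 0.0029 for all tested genes, of which 51% were above 0. By role, 2 of 19 carriers and secreted proteins rose (median 0.18), as did 3 of 33 transporters of solutes and hormones (median -0.01). SLC6A20 is in the 5 and in the 3 of 33, but it was tested through the 3 birds and lends no support. None did among 24 ion and fluid transport genes, 33 receptors and signals, 28 transcription factors or 27 junction and keratin genes, with medians of -0.03, 0.02, 0.20 and 0.01. RSPO3, a secreted booster of Wnt signals, was the one signal whose classes did not overlap, with 10.9, 9.78 and 9.51 CPM against 3.37 to 8.15 CPM (0.91 ± 0.22, adjusted p = 0.233).

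**Figure D3:**
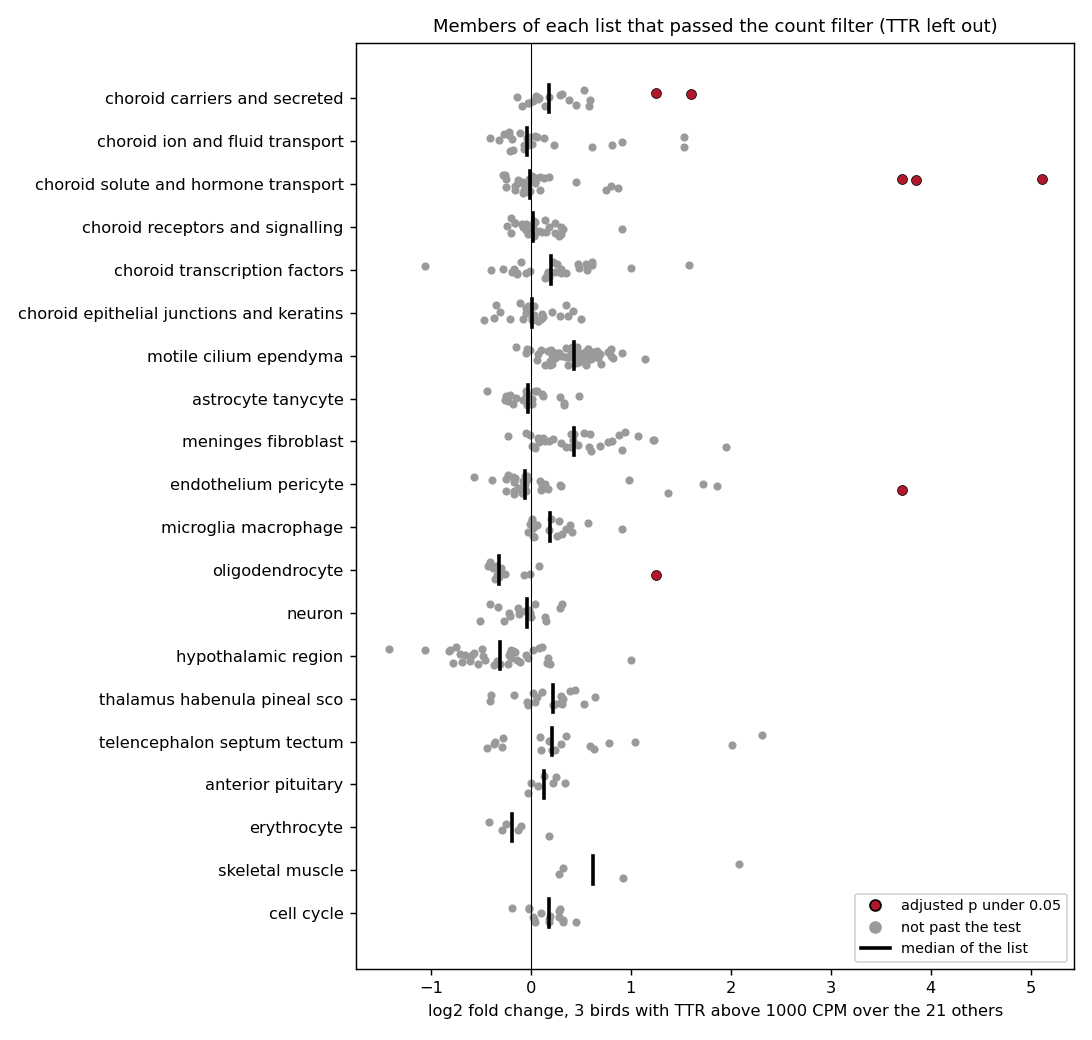
Log2 fold change for each listed gene that passed the filter, TTR left out. It sets the 3 birds with TTR above 1000 CPM against the other birds of their own diet and temperature groups. Red points passed the test, grey ones did not, and the black bar is the median of the list. SLC6A20, SLC13A4, SLCO1C1, KL and TF stand far right of their lists, SLCO1C1 and TF appear in 2 lists each, and the motile cilium list is shifted as a whole to a median of 0.43.

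The best known genes of fluid secretion did not pass the test. AQP1, the water channel of the choroid plexus, had 43.9, 237 and 105 CPM in the 3 birds, against 55.3 to 266 CPM in the 21, a log2 fold change of -0.03 ± 0.44 (95% interval -0.96 to 0.90). SLC12A2, the sodium, potassium and chloride cotransporter, had -0.32 ± 0.19 (-0.72 to 0.07), and ATP1B1, a sodium pump subunit, had -0.18 ± 0.10 (-0.39 to 0.04). CA2, a carbonic anhydrase, had -0.11 ± 0.09 (-0.31 to 0.08). In the median of the 21 birds CA2 had 254.7 CPM and ATP1B1 1498 CPM. Which cells these counts came from was not tested. A doubling lay outside each of these intervals.

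Among secreted proteins and receptors the picture was alike. ENPP2, or autotaxin, had -0.14 ± 0.21, IGFBP2, a binding protein of insulin-like growth factors, had 0.07 ± 0.10, and HTR2C, the serotonin receptor abundant on mammalian choroid plexus, had 0.30 ± 0.24 (95% interval -0.19 to 0.79). IGF2 was less certain, at 0.53 ± 0.55 (-0.61 to 1.68), and so was RBP4, which carries retinol and binds TTR in blood, at 0.45 ± 0.46 (-0.52 to 1.42). Of the transcription factors, OTX2, needed for choroid plexus to form in mice, had 10.9, 6.03 and 12.3 CPM in the 3 birds, against 3.24 to 12.3 CPM (0.56 ± 0.28, adjusted p = 0.910). MSX1 had 0.792, 1.41 and 1.65 CPM against 0.0782 to 1.33 CPM (1.58 ± 0.56, adjusted p = 0.723).

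Some markers of mammalian choroid plexus were at or near 0 in every bird. KCNE2, a potassium channel subunit, had 0.144, 0.235 and 0.749 CPM in the 3 birds, within the 0.0722 to 0.791 CPM of the 21. CLDN2, the leaky claudin, had 0, 0.0783 and 0 CPM, against 0 to 0.452 CPM. KRT18, a keratin of simple epithelia, had no count in the 3 birds and at most 0.151 CPM in the 21, and its partner KRT8 had 0.0720, 0.704 and 0.374 CPM against 0 to 0.772 CPM. CA12 had no count in the 3 birds either. In none of these genes did the 3 birds stand above the 21, as they did in FOLR1 and KCNJ13 from levels about as low. These rows hold few counts, so a small difference could not be seen.

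A further 25 tested genes separated the 3 birds from the 21 without passing the test, of which 3 are on the lists and 22 on none. The 22 had log2 fold changes of 0.18 to 1.71 and adjusted p of 0.0707 to 0.910, and the ones named here were picked after their values were seen. CA9, a carbonic anhydrase, had 5.40, 5.40 and 6.29 CPM against 1.72 to 3.95 CPM (0.89 ± 0.20, adjusted p = 0.186). SLCO1B3, an organic anion carrier of the SLCO1C1 family, had 4.03, 4.23 and 4.19 CPM against 0.387 to 2.70 CPM (1.38 ± 0.34, adjusted p = 0.257). CST3, or cystatin C, a protease inhibitor abundant in cerebrospinal fluid, had 1962, 2176 and 2030 CPM against 1075 to 1851 CPM (0.47 ± 0.13, adjusted p = 0.405). In the other direction 5 genes (0.0364%) had the 3 birds below all the 21: ENSGALG00000036831, LMF1, KRT12, ARF6 and SCO2, with log2 fold changes between -1.29 and -0.21.

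Motile cilium genes, which serve the ciliated ependyma that lines the ventricles, leaned higher without any of them passing the test. Of the 64 tested, 60 had a log2 fold change above 0 where 51% of all genes did, the median was 0.43, and 23 were higher at an unadjusted p under 0.05, as were 3.22% of all genes. CAPSL had 5.32, 11.3 and 8.61 CPM in the 3 birds, against 1.88 to 7.59 CPM (1.14 ± 0.31, adjusted p = 0.386), and CFAP161 had 6.91, 7.98 and 4.34 CPM, against 2.11 to 6.36 CPM (0.91 ± 0.24, adjusted p = 0.357). FOXJ1, the switch of the motile cilium program, had 19.1, 22.6 and 14.8 CPM, against 5.72 to 21.3 CPM (0.48 ± 0.18, adjusted p = 0.791). The list summed to 757 CPM in L-citrulline bird 1, to 851 CPM in L-citrulline bird 5 and to 755 CPM in basal bird 6, ranks 3, 1 and 4 of 24, against 458 to 845 CPM in the 21. The highest sum of the 21 was that of L-citrulline bird 4 at 24 °C, which had 42.0 CPM of TTR. The median was 0.51, 0.47 and 0.28 without L-citrulline bird 1, L-citrulline bird 5 and basal bird 6. Whether cilium genes came from choroid plexus or from ependyma was not tested.

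The meninges and fibroblast list had a raised median too, and in the comparison of the 3 birds this rested on L-citrulline bird 5. Of its 32 members 0 passed, 29 were above 0 and the median was 0.43, but without that bird 13 were above 0 and the median was -0.10. COL3A1, a fibrillar collagen, had 33.8, 320 and 55.0 CPM in the 3 birds, against 31.8 to 181 CPM, and ASPN, a small matrix proteoglycan, had 1.51, 11.5 and 1.65 CPM, against 0.416 to 2.65 CPM. The bird also had the most of the smooth muscle actin gene ACTA2 (33.6, 420 and 33.8 CPM, against 22.6 to 79.5 CPM) and of ACTA1, a muscle actin (5.76, 37.0 and 2.70 CPM, against 1.66 to 5.15 CPM). NEUROD6, a marker of pallial neurons, had 5.18, 42.7 and 3.44 CPM, against 1.04 to 30.6 CPM. These genes followed 1 bird and not the 3. Leaving L-citrulline bird 5 out gave 10 higher genes, 9 of them among the 13, with SLC13A4 at 3.93 and SLCO1C1 at 3.57. The calls lost without that bird were those of ENSGALG00000007596, ENSGALG00000050919, KL and TF. Leaving it out also makes the class smaller, so the part of the matrix and muscle genes in the calls was not tested. Leaving out basal bird 6 instead cost more of the calls and kept 7 of the 13. Those lost were SOD3, KL, TF and the 3 genes without a symbol. That bird was alone of the 3 in its group. Without it the class is compared only within the L-citrulline birds at 24 °C, so the larger loss is no measure of the bird.

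**Figure D4:**
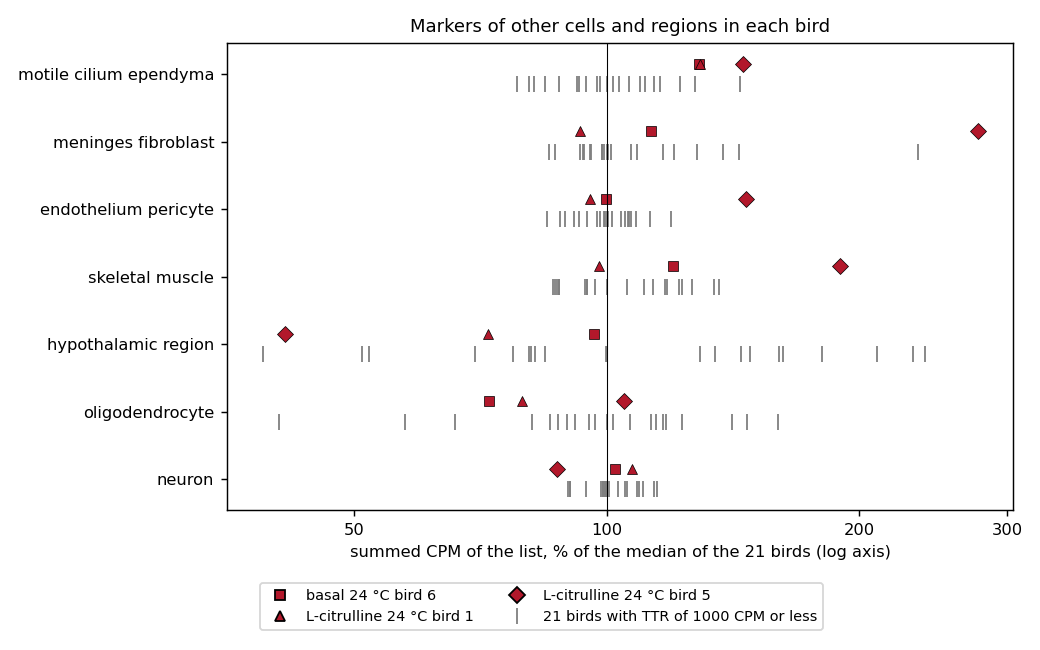
Summed CPM of 7 marker lists as a percentage of the median of the 21 birds with TTR of 1000 CPM or less, on a log axis; red symbols are the 3 birds with TTR above 1000 CPM, each with its own shape, and grey ticks the 21 others. L-citrulline bird 5 lies far right for meninges, endothelium and pericytes, and skeletal muscle. The 3 birds lie together for motile cilia, where they overlap the 21.

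Of 33 tested endothelial genes 1 passed the test, SLCO1C1, which brain vessels also carry in mammals, while 13 were above 0 and the median was -0.06. Of all tested genes 0.0946% passed. Hypothalamic region genes leaned lower, 30 of 37 below 0 with a median of -0.31 and 0 past the test. SIX6, a factor of the developing hypothalamus, had 2.09, 0.548 and 2.02 CPM, against 0.396 to 9.43 CPM (-1.42 ± 0.59), and AVP had -1.06 ± 0.56. That median was -0.14 without L-citrulline bird 5. Neuron, astrocyte and tanycyte, microglia, thalamus, telencephalon, pituitary, erythrocyte and cell cycle lists had medians of -0.04, -0.03, 0.19, 0.22, 0.21, 0.13, -0.19 and 0.18, with 0 members past the test. In the same order, 6 of 18, 10 of 22, 16 of 18, 14 of 19, 14 of 19, 5 of 7, 1 of 6 and 13 of 16 members were above 0. The members with the largest changes were GAD1 (-0.51 ± 0.23) and SLC32A1 (-0.41 ± 0.22) of the inhibitory neurons, VIM (0.48 ± 0.18) and GPR50 (-0.44 ± 0.33) of tanycytes, and LY86 (0.91 ± 0.36) and TMEM119 (0.57 ± 0.43) of microglia. For the brain regions they were PDE6B (0.65 ± 0.96), LHX9 (0.53 ± 0.40), NEUROD6 (2.31 ± 0.86) and EMX1 (2.01 ± 1.20), for pituitary TBX19 (0.34 ± 0.49) and POU1F1 (0.25 ± 0.22), for red cells HBM (-0.42 ± 0.52) and TAL1 (-0.29 ± 0.22), and for dividing cells PLK1 (0.45 ± 0.25) and TPX2 (0.32 ± 0.17). The median of the 4 skeletal muscle genes, 0.62, came with ACTA1 (2.09 ± 0.49, adjusted p = 0.208) and TNNT3 (0.93 ± 0.52), both highest in L-citrulline bird 5.

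The ratio of each gene to TTR was steady in some cases and not in others. Per 1000 CPM of TTR, SLC13A4 had 16.7, 14.4 and 11.5 CPM in the 3 birds, KL had 6.25, 5.03 and 5.00 CPM, and SLC30A8 had 4.51, 3.55 and 4.30 CPM. MSX2 had 1.11, 1.13 and 1.05 CPM per 1000. SLCO1C1 varied more, at 6.06, 5.11 and 2.5 CPM, as did PROCA1 at 48.0, 23 and 30 CPM and SLC13A1 at 0.533, 1.44 and 0.307 CPM. With 3 birds these are descriptions only.

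The same genes were then followed among the 21 birds with little TTR, whose order among themselves played no part in choosing the 3. There, 0 of 13838 genes rose (0%) and 0 fell (0%) with log2 TTR (edgeR quasi-likelihood, adjusted p under 0.05), with 238 and 191 at an unadjusted p under 0.05, and DESeq2 also called 0 and 0. Of the 13 companions of TTR, 12 had enough counts to be followed, and 9 of these had a slope above 0. None of the 12 passed the test, and the median slope of all genes was 0.0014. SLCO1C1 had 0.49 ± 0.19 on the log2 scale per doubling of TTR, SOD3 0.25 ± 0.16, SLC13A4 0.21 ± 0.11 and KL 0.17 ± 0.09, all with adjusted p = 1. PROCA1 (0.02 ± 0.05), TF (-0.0042 ± 0.073) and CHAD (-0.11 ± 0.08) were near 0 or below it. The smallest unadjusted p in this fit, 0.000721, belonged to HS3ST2, a heparan sulfate sulfotransferase, with a slope of 0.26 ± 0.06 and an adjusted p of 1. The next were SNRPA1, PRKD3, KLHL41, LAMA5, TBCC, SOX9, NDUFAF7, CRIP1 and LMO2, none of them among the 13. By list, meninges and fibroblasts had the largest median slope within the 21 birds, 0.08, with 29 members above 0. Over all choroid lists the median slope was 0.01, with 101 members above 0. In the 24 libraries 32 and 164 members of these lists passed the filter, not all of which need have a slope. The share of all genes with a slope above 0 was not counted, so these counts have no background to be set against.

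**Figure D5:**
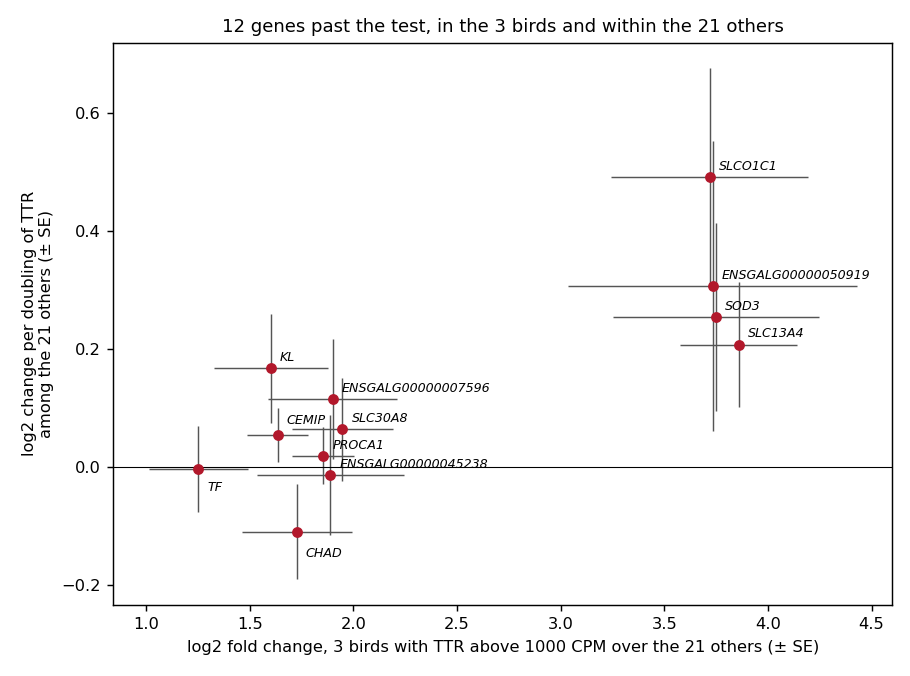
For 12 genes past the test, the log2 fold change (x axis, ± SE) against the log2 change per doubling of TTR (y axis, ± SE). The x axis sets the 3 birds with TTR above 1000 CPM against the other birds of their own diet and temperature groups. The y axis is the slope within the 21 others. SLCO1C1, ENSGALG00000050919, SOD3 and SLC13A4 lie to the upper right, and CHAD lies below 0 on the y axis.

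The 2 birds next in line, L-citrulline birds 2 and 4 at 35 °C with 165 and 149 CPM of TTR, shared a few of the genes. SOD3 had 6.04 and 6.07 CPM in them, ranks 5 and 4 of all 24 birds behind the 3, against a median of 1.52 CPM in the 21. KCNJ13 had 0.706 and 0.733 CPM, also ranks 5 and 4. SLC6A20 had 1.49 and 0.800 CPM, ranks 4 and 6. ENSGALG00000050919 had ranks 4 and 5. SLCO1C1 was 0.471 CPM in bird 2, rank 18, and 1.40 CPM in bird 4, rank 5, and SLC30A8 was rank 14 and rank 4. Other genes were split between the birds, with CEMIP at ranks 4 and 20, PROCA1 at 5 and 13 and MSX2 at 22 and 5. TMEM72 and SLC15A1 were high in neither, at ranks 17 and 16 and ranks 22 and 20. The cilium sums of these birds were 479 and 539 CPM, ranks 22 and 19. Their meninges and fibroblast sums were 2652 and 1356 CPM, ranks 2 and 6. Such levels were not confined to the birds next in TTR. L-citrulline bird 1 at 35 °C was rank 23 for TTR, with 11.6 CPM. It had 5.24 CPM of SOD3 and 3.015 CPM of ENSGALG00000050919, rank 6 for both. For CHAD it was rank 4 and for ENSGALG00000045238 rank 3.

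TTR above 1000 CPM was found in 0 of 12 birds at 35 °C and 3 of 12 at 24 °C (Fisher's exact test, two-sided p = 0.217), and in 2 of 12 birds on L-citrulline and 1 of 12 on basal feed (exact p = 1). By group it was 0 of 6 in L-citrulline birds at 35 °C, 0 of 6 in basal birds at 35 °C, 2 of 6 in L-citrulline birds at 24 °C and 1 of 6 in basal birds at 24 °C. The TTR values of the heat comparisons turned sign without the 3 birds. At 35 °C against 24 °C on L-citrulline its log2 fold change was -2.95 ± 1.25 with all birds and 0.77 ± 0.67 without the 3, and on basal feed -2.79 ± 1.26 and 0.61 ± 0.63. With all birds neither passed edgeR's quasi-likelihood test (adjusted p of 0.693 and 1). For L-citrulline against basal feed the sign held: at 35 °C, where none of the 3 birds was, the value was 0.81 ± 1.20 with all birds and 0.80 ± 0.59 without the 3, and at 24 °C it was 0.96 ± 1.17 and 0.64 ± 0.69. The authors' deposited table gave -3.76 for TTR at 35 °C with basal feed against 24 °C with L-citrulline, with a p-value of 0.0511 and an adjusted p of 1.

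SLC13A4 behaved likewise on basal feed, with -0.999 ± 0.843 at 35 °C against 24 °C with all birds and 1.11 ± 0.34 without the 3, and on L-citrulline the values were -2.41 ± 0.84 and -0.27 ± 0.34. PROCA1, at 35 °C against 24 °C on L-citrulline, had -0.93 ± 0.38 with all birds and 0.0023 ± 0.15 without the 3. With all birds none of these passed the test, with adjusted p of 0.609 to 1. The birds left out were picked by their TTR, so these pairs of values describe what the 3 birds contribute and do not test heat or diet.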

How the data were processed

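Gene counts and FPKM for the 24 libraries were used as the authors deposited them in 1 expression table of 16779 genes. Per the submitters' processing notes, the tools were HISAT2, TopHat, HTSeq and DESeq on build GRCg6a, with settings, strand included, that these sources do not state. The authors' deposited DESeq tables give log2 fold changes and p-values, of which only TTR is quoted. CPM are counts divided by the library total of the gene rows, 12635239 to 15001037. The 3 birds had TTR above 1000 CPM. edgeR 4.0.16 in R 4.3.3 fitted all 24 libraries (TMM, filterByExpr on the 4 groups, 13742 genes kept) with the class and the group as terms, 19 residual degrees of freedom, adjusting over 13741 genes without TTR. A second fit took log2(TTR CPM + 0.5) as a slope within the 21 other libraries. SE is the log2 fold change divided by the root of F, and intervals are 95% t intervals. The scripts were tested on simulated data. DESeq2 1.42.0, limma 3.58.1 and other filters, terms and thresholds were alternatives. The edgeR p-values set the class difference or the slope against the spread between birds within the 4 groups. Named genes are those past the test, the 10 smallest slope p, choroid list members, and the 2 largest changes of each other list. The 3 birds, the lists and the tests were chosen with earlier results of these data known. Names missing from the table were filled for 1213 genes by NCBI gene number from RefSeq (GRCg7b), and 506 of 595 list symbols matched.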

Additional observations from a re-analysis of the deposited data

Results flagged for a closer look

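Within each group of 6 birds, the highest and lowest bird were set against the rest by the gap to the nearest bird as a share of the group's range, for 14 genes in 4 groups, and 16 of these 56 cases passed Dixon's 95% limit. Chance passes about 1 group in 20, but that rate is no yardstick here, because the genes were picked for being high in the 3 birds. In 14 of the 16 the bird was basal bird 6 at 24 °C, the only bird of its group with TTR above 1000 CPM, and each time it was the highest, as the choice of genes makes likely. The genes and its CPM were TF 1080, PROCA1 51.2, SOD3 26.1, SLC13A4 19.7, CEMIP 17.9 and CHAD 13.9. Its remaining CPM were KL 8.54, SLC30A8 7.34, FOLR1 7.26, SLCO1C1 4.27, SLC6A20 2.77, KCNJ13 2.77, TMEM72 2.02 and MSX2 1.80. The same genes were not singled out in the 24 °C L-citrulline group, where 2 of the 6 birds were high.

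The other two cases lie outside the 3 birds. SLC13A4 had 3.53 CPM in L-citrulline bird 2 at 35 °C, the bird with the most TTR of the 21, against 2.07 CPM in the next bird of its group. SLC6A20 had 1.13 CPM in basal bird 2 at 35 °C, against 0.235 CPM in the next, and TTR in that bird was 70.1 CPM.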

How the results depend on the processing

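The 13 higher genes, 0 lower genes and 5 higher choroid list members became 23, 1 and 5 with DESeq2, 21, 0 and 7 with limma voom, and 32, 1 and 7 with no diet and temperature term. With no filter on low counts they were 18, 0 and 8, and within the 24 °C birds 9, 0 and 3. Of the 13 genes, DESeq2 and voom kept 13, the fit with no group term 12 and the 24 °C fit 9. SLCO1C1 and SLC6A20 missed the filter in the 24 °C fit, and also within the L-citrulline birds at 24 °C given next. They were not tested in either fit, so their calls there are absent and not lost. Alternatives added after the data were seen gave 17, 0 and 8 with the filter set on the 3 birds, and 4, 0 and 1 within the L-citrulline birds at 24 °C, where the sample is smaller. A filter set on the 3 birds lets genes in through those birds alone, and so does having no filter. The choroid members that these 2 fits add (KCNJ13, FOLR1 and TMEM72) therefore lend no support. SLC13A1 and ENSGALG00000053422, called with no filter, lend none either. RLE factors, the W class, TTR thresholds of 100 and 300 CPM and log2 TTR as a term kept all 3 counts within 1.5 times. Leaving out each bird gave 9 to 14 higher, 0 to 1 lower and 3 to 5 choroid members, the fewest (9, 1 and 3) without basal bird 6, and 10, 0 and 3 without L-citrulline bird 5.

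Replicate numbers do not pair the birds: over 36 pairs of equal number the deviations correlated between -0.40 and 0.40, and for 0 numbers was every pair above 0.1. With the number as a replicate block the counts were 11, 0 and 4. No log2 fold change of the 13 genes changed sign in any setting, and 43 of 475 values missed the threshold. The slope counts were 0 and 0 in every setting. With 3 birds in the class, genes at a few counts per library can be missed. Genes that share a symbol were kept as separate rows.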
